A study of Drosophila melanogaster with 6 samples.

Results

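The 43 genes described here encode the receptors, ligands and cadherins of axon guidance in Drosophila melanogaster, with the cytoplasmic proteins that act beneath them. They were taken as a named list from the 17807 RefSeq genes on the assembled chromosomes (dm6), and a gene counted as occupied in a library when a peak overlapped its span or 1 kb on either side. DNA of wild-type adult heads had been enriched with an antibody against 5-methylcytosine and sequenced beside an input (MeDIP-seq), in 3 lead libraries (labelled 800um) and 3 control libraries (labelled 0um). Positions below are dm6. All 6 libraries also carry the label F3, and the labels do not say what it stands for. Lead and control below name the labelled dose. The study set out to find whether lead changes DNA methylation. Neither the number of animals per library nor whether replicates came from separate cultures is given, so the spread between replicates may be technical.

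Growing axons read their path from secreted and membrane-bound cues. Slit repels axons from the midline through Robo receptors, netrins attract through Frazzled and repel through Unc-5, and semaphorins act mainly as repellents through plexins. Receptor tyrosine phosphatases, teneurins and cadherins then act in target choice and synapse partner matching in the fly brain and at the neuromuscular junction, and many of these genes have very long introns. The fly genome is known to carry little 5-methylcytosine, so a peak is given here as an antibody-enriched stretch and not as a methylation level.

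The lists differed in length, with 3522, 1379 and 2536 peaks in lead replicates 1, 2 and 3, against 1746, 2414 and 2157 in control replicates 1, 2 and 3. Reads per library are unknown here, so a missing peak means not called and not unmethylated. The labels do not say what the score of a peak measures. A score percentile below is the share of the peaks in the same list with a score no higher, a description within that list.

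The number of guidance genes with a peak did not separate lead from control libraries. At least 1 library had a peak at 24 of the 43 genes (12.2% of all genes), and 12 of the 43 were occupied in all 6 libraries (3.69% of all genes). The 12 were NetA, Sema1a, Lar, Ptp10D, Ptp99A, Ten-a, Con, stan, tutl, ed, ena and Abl. Lead replicates 1, 2 and 3 held a peak at 23, 13 and 17 of the genes, against 17, 19 and 20 in control replicates 1, 2 and 3. The lead libraries enclosed the control libraries on both sides, and within the lead group a longer list came with more occupied genes. Lead libraries averaged 17.7 ± 5.03 occupied guidance genes and control libraries 18.7 ± 1.53 (SD, n = 3 each), a difference of -1 that was smaller than either SD. Without lead replicate 2, which has the shortest list, the difference was 1.33.

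Nor did the number of peaks at these genes. Lead replicates 1, 2 and 3 held 58, 26 and 43 peaks at the guidance genes, against 36, 37 and 37 in control replicates 1, 2 and 3. Lead libraries averaged 42.3 ± 16.0 peaks at these genes and control libraries 36.7 ± 0.577 (SD, n = 3 each), and the ranges overlapped. The difference of 5.67 peaks was -2.17 without lead replicate 1 and 13.8 without lead replicate 2. As a share of each list, the guidance genes took 1.65%, 1.89% and 1.70% of peaks in lead replicates 1, 2 and 3, against 2.06%, 1.53% and 1.72% in control replicates 1, 2 and 3, so the highest and the lowest shares were both in control libraries. With the 1379 highest-scoring peaks kept in every library, lead libraries had 13.3 ± 0.577 occupied guidance genes and control libraries 13.3 ± 0.577 (SD, n = 3 each).

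**Figure D1:**
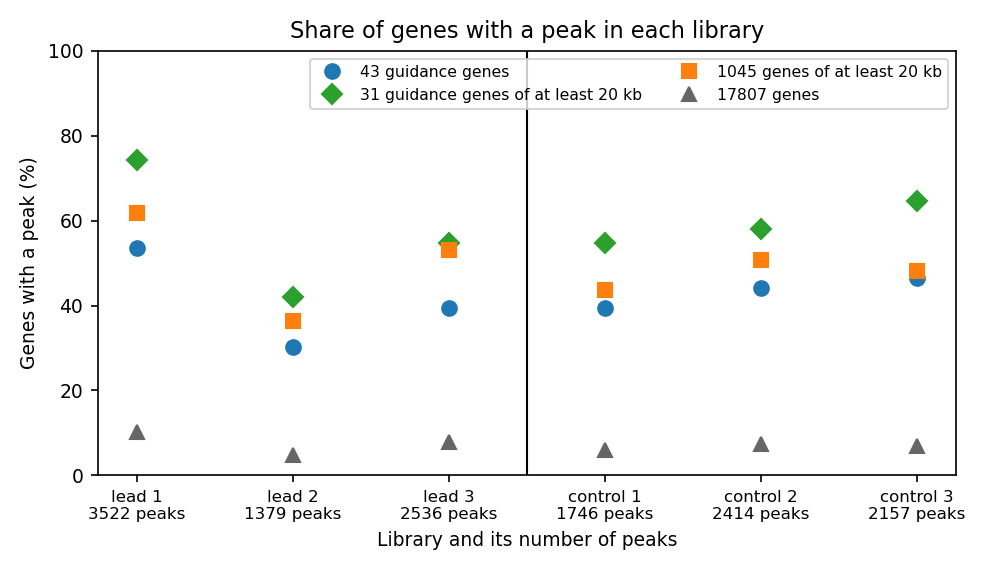
Share of genes with a peak (vertical axis, %) in each of the 6 libraries (horizontal axis, with the number of peaks in the list), for the guidance genes, for those of at least 20 kb, for all genes of at least 20 kb and for all genes; each point is 1 library. Lead replicate 1 (53.5% of the 43 genes) and lead replicate 2 (30.2%) lie at the top and the bottom, with the control libraries between 39.5% and 46.5%.

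Gene length went with occupancy. The guidance genes span 3.81 to 292 kb with a median of 40.2 kb, where the median of all genes is 1.69 kb. Of the 31 guidance genes of at least 20 kb, a bound chosen after the data were seen, 23 were occupied in some library (74.2%, 95% Wilson interval 56.8 to 86.3, counting error only), against 70% of all 1045 genes of that length. In all 6 libraries, 12 of the 31 were occupied (38.7%), against 29.7% of the 1045 genes. The 1045 genes are shorter, with a median span of 37.3 kb against 49.9 kb for the 31. The 1 occupied gene among the 12 under 20 kb was Toll-7, a Toll-family receptor, with a single peak in control replicate 2 whose midpoint lay 805 bp outside the lower end of the gene. Over the 43 genes, span and mean number of peaks had a Spearman coefficient of 0.69, a description across genes that share the same 6 libraries. Per base, peaks at guidance genes were about as frequent as at genes at large. Lead libraries held 1.73 ± 0.654 and control libraries 1.498 ± 0.0236 peaks per 100 kb of guidance gene, against 1.85 ± 0.831 in lead and 1.55 ± 0.222 in control libraries per 100 kb of all gene spans (SD, n = 3 each).

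**Figure D2:**
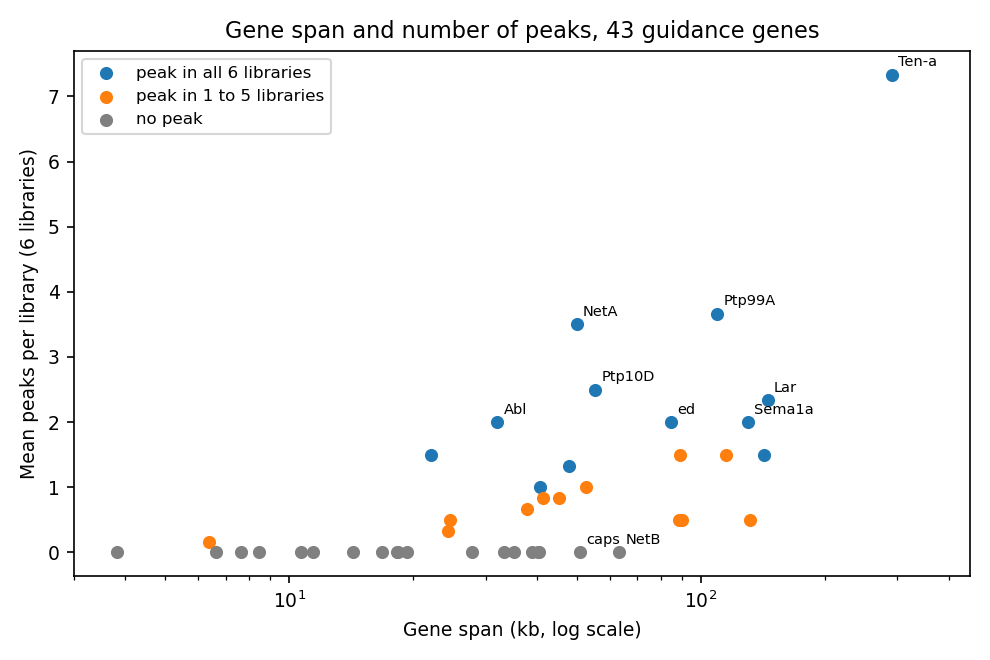
Gene span (horizontal axis, kb, log scale) and mean number of peaks per library over the 6 libraries (vertical axis) for the 43 guidance genes; each point is 1 gene, coloured by how many libraries had a peak. Ten-a, the longest at 292 kb, had the most peaks, and NetB, at 63.3 kb, is the longest gene with no peak.

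Several long guidance genes had no peak. Of the 8 guidance genes of at least 20 kb with no peak in any library, 5 belong to the Slit and netrin pathways. They are robo2 (40.4 kb) and robo3 (40.2 kb), both Slit receptors, fra (35.1 kb), the attractive netrin receptor, unc-5 (27.8 kb), the repulsive one, and NetB (63.3 kb), a netrin. The other 3 were Sema2a, a secreted semaphorin, caps, a leucine-rich repeat protein of photoreceptor targeting, and trio. No peak was found either at robo1, which spans 8.45 kb. Over all genes of at least 20 kb, 30.0% had no peak, against 25.8% of these 31. Whether unoccupied genes gather in any role was not tested.

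Of the slit, netrin and semaphorin genes, NetA carried the most peaks. NetA (X:14604012-14653928), a netrin secreted by midline cells, had 4, 3 and 4 peaks in lead replicates 1, 2 and 3, against 4, 3 and 3 in control replicates 1, 2 and 3. The groups overlapped (difference 0.33 peaks, exact permutation test, two-sided, p = 1). Its paralogue NetB, also on X, had none in any library. Sema1a (2L:8542147-8672041), a transmembrane semaphorin that also works as a receptor, had 2, 3 and 2 peaks in the lead replicates, against 1, 2 and 2 in the control replicates (difference 0.67, exact p = 0.6). The other two occupied genes of this role were seen less regularly: sli, which encodes Slit, had 3, 0 and 0 peaks in the lead replicates, against 1, 0 and 2 in the control replicates. Sema2b, a secreted semaphorin, had 3, 0 and 1 peaks in the lead replicates, against 0, 0 and 1 in the control replicates. Of the 13 genes of this role 4 were occupied in some library and 9 in none. Occupied were 12.2% of all genes and 70% of those of at least 20 kb. Among the 9, robo1, Sema1b and Sema5c span less than 20 kb.

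The receptor tyrosine phosphatases divided by gene length, with Lar, Ptp10D and Ptp99A occupied in all 6 libraries and Ptp69D (6.62 kb) and Ptp4E (16.8 kb) in none. Ptp99A (3R:29377646-29487131), which takes part in motor axon guidance, had 4, 4 and 6 peaks in lead replicates 1, 2 and 3, against 1, 2 and 5 in control replicates 1, 2 and 3. Lead replicates were at or above 4, but control replicate 3 reached 5, and the groups overlapped (difference 2, exact permutation test, two-sided, p = 0.3). Lar (2L:19586623-19732069), a receptor for heparan sulphate proteoglycans in axon targeting and synapse growth, had 2, 1 and 5 peaks in the lead replicates, against 2, 2 and 2 in the control replicates (difference 0.67, exact p = 1). Its high value was that of lead replicate 3. Ptp10D (X:11622015-11677338), which acts at the midline, had 4, 1 and 2 peaks in the lead replicates, against 2, 4 and 2 in the control replicates (difference -0.33, exact p = 1).

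Ten-a (X:12043698-12335214), a teneurin of synaptic partner matching, carried more peaks than any other gene of the list. It had 10, 5 and 9 peaks in lead replicates 1, 2 and 3, against 10, 5 and 5 in control replicates 1, 2 and 3, and held between 13.5% and 27.8% of the peaks at guidance genes in a library. The groups shared the same lowest and highest values (difference 1.33, exact permutation test, two-sided, p = 1). Its paralogue Ten-m had 3, 0 and 1 peaks in the lead replicates, against 2, 2 and 1 in the control replicates. Con, which encodes Connectin, a homophilic adhesion protein of muscles and motor axons, had 2, 1 and 2 peaks in the lead replicates, against 1, 2 and 1 in the control replicates. The leucine-rich repeat genes trn and caps and the receptor gene Toll-6 had no peak.

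Among the cadherins, stan was the regularly occupied one. The stan gene (2R:10673345-10721138) encodes Flamingo, an atypical cadherin of axon target selection and planar polarity, and had 2, 1 and 2 peaks in lead replicates 1, 2 and 3, against 1, 1 and 1 in control replicates 1, 2 and 3 (difference 0.67, exact permutation test, two-sided, p = 0.4). CadN, the classical N-cadherin of photoreceptor targeting, had 1, 0 and 0 peaks in the lead replicates, against 0, 1 and 1 in the control replicates, although it spans 131 kb. CadN2, a shorter N-cadherin gene on the same arm, had 2, 0 and 0 peaks in the lead replicates, against 0, 1 and 0 in the control replicates. The Fat2 cadherin gene kug had none. Of the Ryk-type Wnt receptors, Drl-2 and dnt were each occupied in lead replicate 1 and in 1 control library, and drl and the pseudokinase gene otk had none.

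Of the 5 adhesion genes of the L1, neurotactin and immunoglobulin families, 4 were occupied in some library, all 4 of at least 20 kb, a length at which 70% of all genes were occupied. The gene tutl (2L:4283148-4323781), which acts in axon tiling and dendrite self-avoidance, had exactly 1 peak in each of the 3 lead and 3 control libraries. The gene ed (2L:4031377-4115749), which encodes Echinoid, had 3, 2 and 1 peaks in lead replicates 1, 2 and 3, against 3, 2 and 1 in control replicates 1, 2 and 3. The related gene fred had 2, 0 and 2 peaks in the lead replicates, against 1, 2 and 2 in the control replicates. Nrg, the L1-type neuroglian, had 2, 0 and 0 peaks in the lead replicates, against 1, 0 and 1 in the control replicates, and Nrt, which encodes neurotactin, had none.

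Among the cytoplasmic proteins, cv-c was the 1 guidance gene with peaks in all lead and no control libraries (0.0618% of all genes, 0.383% of those of at least 20 kb). The gene (3R:14391683-14481713) had 1 peak in each lead library, against 0 in each control library (difference 1, exact permutation test, two-sided, p = 0.1, the smallest that 3 against 3 allows; adjusted over 2173 genes p = 1). Peak numbers failed to overlap between the groups with lead higher for that gene alone among the 43 (0.0899% of all genes, 0.861% of those of at least 20 kb), and with control higher for 0 of the 43 (0.00562% of all genes). Abl (3L:16615866-16647882), a tyrosine kinase downstream of several guidance receptors, had 2, 1 and 2 peaks in lead replicates 1, 2 and 3, against 3, 1 and 3 in control replicates 1, 2 and 3 (difference -0.67, exact p = 0.6). The actin regulator ena, which Abl opposes, had 2, 2 and 1 peaks in the lead replicates, against 1, 2 and 1 in the control replicates. Mical, a redox enzyme that takes actin filaments apart downstream of semaphorins, had 1, 0 and 1 peaks in the lead replicates, against 1, 1 and 1 in the control replicates.

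**Figure D3:**
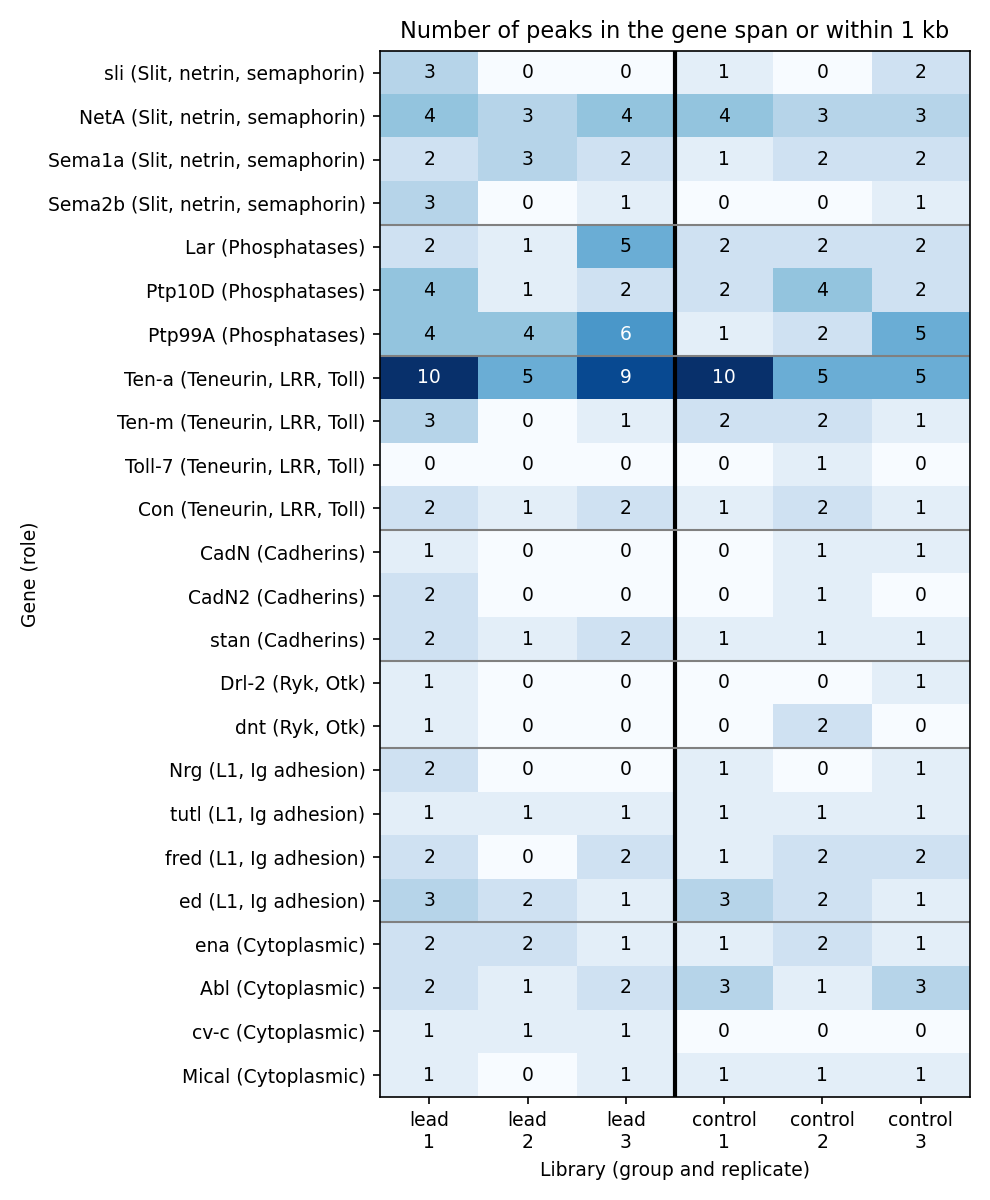
Number of peaks (cell numbers and shading) at each of the 24 occupied guidance genes (rows, grouped by role) in each library (columns, lead left of the vertical line and control right of it). The cv-c row is filled in the 3 lead libraries and empty in the 3 control libraries, while Ten-a reaches 10 in lead replicate 1 and in control replicate 1.

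In whole genes, a direction was seldom marked. Across the 43 genes, 2 had a peak in more lead than control libraries (4.34% of all genes), which were cv-c with 3 and 0 and Sema2b with 2 and 1. Another 7 had a peak in more control than lead libraries (2.27% of all genes), and 15 in equal numbers of both. The 7 were sli, Ten-m, Toll-7, CadN, Nrg, fred and Mical, each by 1 library. Among genes of at least 20 kb, 6.45% of the 31 guidance genes leaned to lead and 19.4% to control, against 18.3% and 11.9% of all 1045 such genes. Of the 24 occupied genes 11 had no peak in lead replicate 2, the shortest list, and 1 had none in lead replicate 1, the longest. Of all 2173 genes with a peak, 853 had one in lead replicate 2 and 1833 in lead replicate 1. With a library left out, a gene leaned to the group with the larger share of its libraries occupied. A gene seen in 1 library of each group then leaned to the smaller group. Counted so, 5 guidance genes leaned to lead and 4 to control without lead replicate 2. Without lead replicate 3, 5 leaned to lead. In both cases the 5 included CadN2, Drl-2 and dnt, which had a peak in 1 lead and 1 control library. Without control replicate 2, 4 leaned to lead. With equal numbers of peaks, 5 leaned to lead and 6 to control. The median difference in peaks over the 43 genes was 0, as over all genes. No gene of the 2173 with a peak passed an adjusted p of 0.05 (exact permutation test, 0 at an unadjusted p under 0.05), and none could, since 0.1 is the smallest p.

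Overlapping peaks of the 6 libraries were merged into regions, of which 74 lay at guidance genes. Lead libraries alone had a peak at 21 of the 74 (28.4%, against 30.7% of all regions), control libraries alone at 6 (8.11%, against 11.3%) and both groups at 47. Of the 74 regions, 19 were found in 1 library (35.5% of all 4538 regions) and 9 in all 6 (19.6% of all). Lead replicates 1, 2 and 3 held 7, 2 and 6 of the 19, while control replicates 1, 2 and 3 held 1, 2 and 1. Over all regions, lead replicate 1 held 869 of the 1611 found in 1 library. Of the 14 regions found in 5 libraries, 8 lacked a peak in lead replicate 2. Regions found in all 6 libraries ranked at a median score percentile of 81.4, against 22.5 for those in 1 library. Their median width was 683 bp, against 234 bp, and merging can itself widen a region that more libraries share. Where a library had several peaks in a region, the highest percentile was taken, which can raise the rank of broad regions.

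A pair of regions differed fully between the groups, in opposite directions. The region in cv-c (3R:14468269-14468559) was occupied in 3 lead libraries and 0 control libraries (0.441% of all regions) and ranked at percentile 69.9, 64.0 and 63.9 in lead replicates 1, 2 and 3. It lay 13299 bp inside the upper end of the 90.03 kb gene. A region in Lar (2L:19658939-19659190) was occupied in 0 lead libraries and 3 control libraries (0.154% of all regions) and ranked at percentile 9.22, 34.3 and 6.26 in control replicates 1, 2 and 3. It lay near the middle of Lar, at 49.8% of the span, where the gene CG46244 is also annotated. Fisher's exact p for a single region with 3 against 0 cannot fall under 0.1, and with equal numbers of peaks the Lar region was no longer fully different while the cv-c region was.

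The next largest differences were of 2 libraries. Lead replicates 1 and 3 shared a peak that no control library had in Lar (2L:19651768-19652022), Ptp99A (3R:29470858-29471167), Ten-a (X:12277565-12277830), stan (2R:10702607-10702928) and Abl (3L:16625849-16626565). Control replicates 1 and 3 shared a peak that no lead library had in Abl (3L:16647140-16647412), 606 bp inside the upper end of the gene. In the 5 lead-sided regions the missing library was the one with the shortest list. Over all 4538 regions, those in lead libraries alone also outnumbered those in control libraries alone, with 1395 against 515. The share of all regions with a peak in 2 libraries of 1 group alone was not counted. In Lar, the region of lead replicates 1 and 3 and the region of the 3 control libraries lay 6916 bp apart.

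Regions present in all 6 libraries lay in NetA (2), Ten-a (3), Sema1a, Ptp10D, stan and tutl. On X, in NetA, Ten-a and Ptp10D, lay 6 of the 9 (66.7%), against 23.1% of the 890 such regions in the genome, while X held 27.0% of the 74 guidance regions and 27.4% of all regions. NetA and Ten-a each held a cluster of broad enrichment, and 4 of the 74 regions were wider than 1 kb (5.41%, against 2.38% of all regions). In NetA, regions of 1869 and 2242 bp lay 284 bp apart (X:14636638-14641032). Peaks there covered 3362, 3002 and 3192 bp in lead replicates 1, 2 and 3, against 2731, 4000 and 3711 bp in control replicates 1, 2 and 3, and the groups overlapped (difference -295 bp, exact permutation test, two-sided, p = 0.5). The best peak of the cluster ranked at percentile 88.5 to 95.8 in lead and 93.7 to 96.2 in control libraries.

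The Ten-a cluster had a similar shape. Its regions of 2278 and 1781 bp lay 296 bp apart (X:12169093-12173447), at 43.4% and 44.2% of the gene span. Peaks there covered 3675, 2778 and 3053 bp in lead replicates 1, 2 and 3, against 3408, 4009 and 3993 bp in control replicates 1, 2 and 3. Lead replicate 1 lay within the control range and the other two lead replicates below it (difference -635 bp, exact permutation test, two-sided, p = 0.2). The best peak ranked at percentile 96.9 to 98.8 in lead and 98.2 to 98.7 in control libraries, the highest of the guidance genes.

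**Figure D4:**
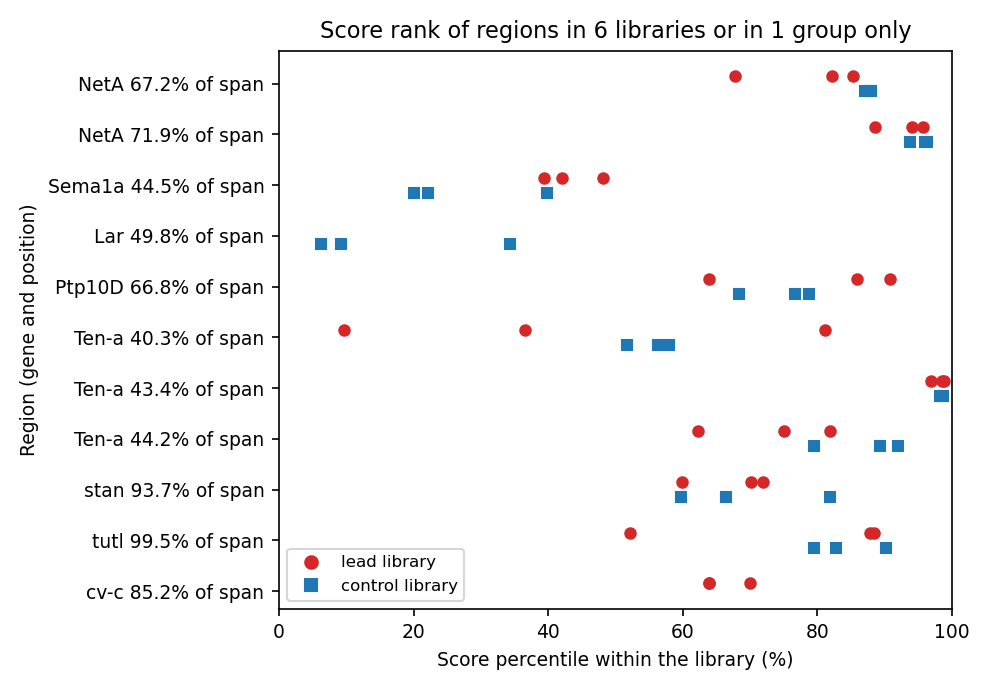
Score percentile within each library (horizontal axis, %) of the 9 regions found in all 6 libraries and of the regions in Lar and cv-c found in all libraries of 1 group; circles are lead and squares control libraries, and each row is a region named by gene and position along the span. The Ten-a region at 43.4% of the span lies at percentile 96.9 or higher in every library, and the Lar region found in control libraries alone at 34.3 or lower.

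Peaks fell along the length of the genes without keeping to their ends. From the lower-coordinate end, successive stretches of 20% of the gene span held 13, 14, 12, 16 and 18 of the 73 regions inside guidance genes. The last stretch held 24.7%, against 23.3% in all genes of at least 20 kb. Of the 9 regions found in all libraries, 4, 3 and 2 lay in the middle stretch and the next ones. The gene table gives no strand or exons, so neither start sites nor exonic positions were assigned. Within 1 kb of either gene end lay 8 of the 74 region midpoints (10.8%), against 7.31% for all genes of at least 20 kb. The sets are not fully alike, since the 74 include the region at Toll-7, a gene under 20 kb. The 8 were in tutl (213 bp from the upper end, all 6 libraries), ena (667 bp, 5 libraries), Mical (724 bp, 5 libraries), Ten-a (964 bp, 4 libraries), CadN (146 bp from the lower end, 3 libraries), Drl-2 (669 bp from the lower end, 2 libraries), Abl (606 bp from the upper end, 2 libraries) and just outside Toll-7.

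**Figure D5:**
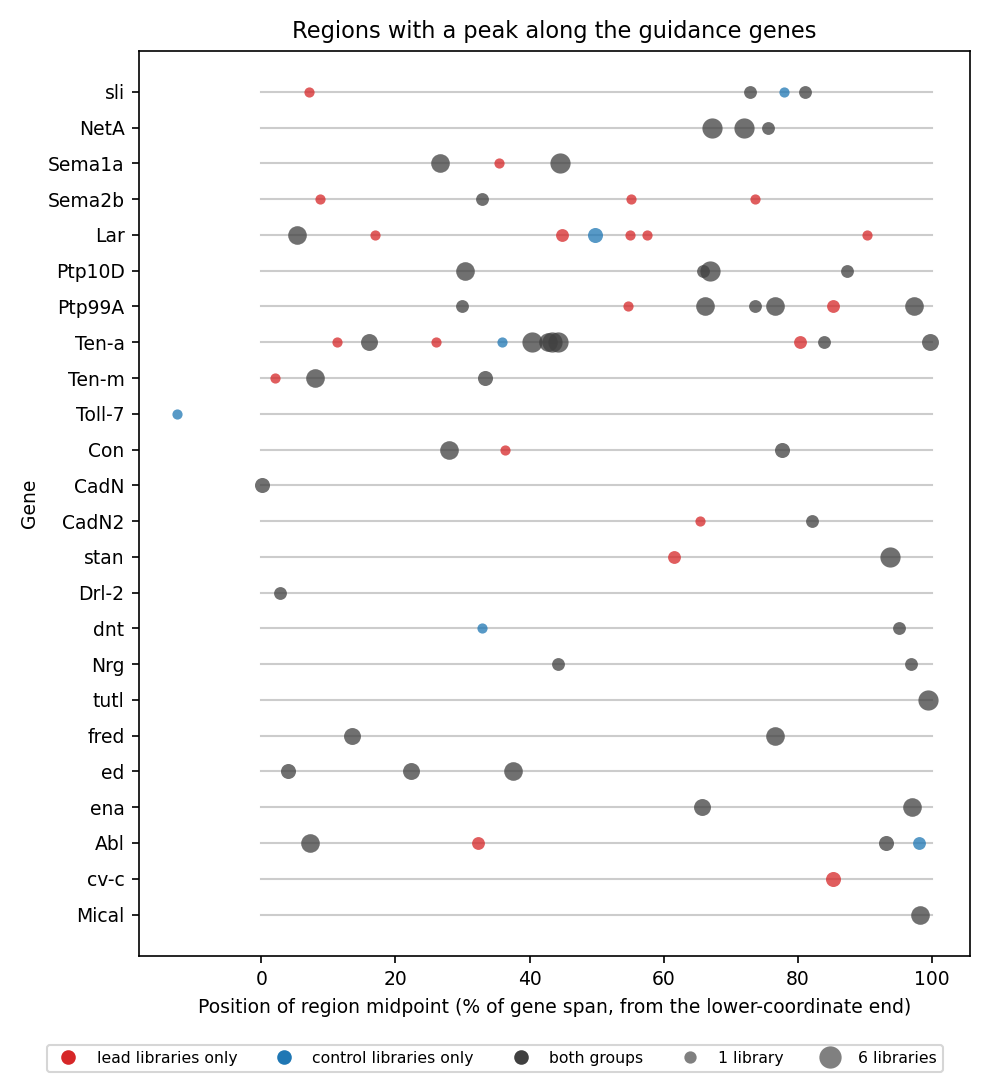
Midpoint of each of the 74 regions along its gene (horizontal axis, % of gene span from the lower-coordinate end) for the 24 occupied guidance genes (rows); point size gives the number of libraries, and colour marks regions in lead libraries alone (21), control libraries alone (6) or both groups (47). Large points cluster near the middle of Ten-a and at 67.2% and 71.9% of NetA.

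In a further list of pathway genes the groups overlapped too. Of 50 further guidance genes, such as plexins, Eph and ephrin, syndecan and other cadherins, 22 were occupied in some library (44%, against 12.2% of all genes). The genes PlexA, PlexB, Eph and Ephrin had no peak in any library. In all 6 libraries 5 of the 50 were occupied (10%, against 3.69% of all genes). These shares are not matched for length, since the median span is 11.8 kb for the 50 and 1.695 kb for all genes. Lead replicates 1, 2 and 3 held a peak at 19, 7 and 17 of the 50, against 10, 16 and 13 in control replicates 1, 2 and 3. None of the 50 differed by 2 or more libraries between the groups. A peak in more lead than control libraries was found at 8 of the 50 (16%, against 4.34% of all genes). The reverse held for 4 (8%, against 2.27% of all genes), and these shares too are not matched for length. Sdc, which encodes Syndecan, a Slit coreceptor, had 7, 4 and 6 peaks in the lead replicates, against 3, 5 and 3 in the control replicates, the most of these 50 genes. Peak numbers of fz2, a Frizzled receptor, were 2, 2 and 2 in the lead replicates, against 0, 1 and 1 in the control replicates, and it was the 1 gene of the 50 without overlap (lead higher in 0.0899% of all genes and 0.861% of those of at least 20 kb; fz2 spans 94.4 kb). Both were named after their values were seen.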

How the data were processed

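Peak lists of 6 MeDIP-seq libraries were used, with groups taken from the titles. The authors trimmed reads with cutadapt and used Bowtie2 2.1.0 for alignment to dm6, per the submitters' processing notes. How peaks were called is not given in the sources used, beyond each library having its own input, per the peak names in the files. Each deposited list holds a score per peak and the peak's length in bp. Repeated rows were dropped, coordinates count from 1, and gene spans came from RefSeq (Release 6). A gene was occupied if a peak overlapped its span or 1 kb on either side by at least 1 bp. Regions are peaks merged where they overlap. Single genes were tested by an exact two-sided permutation test over the 20 ways to assign 3 of 6 libraries, with Benjamini-Hochberg adjustment over all genes with a peak. Sets of guidance genes got counts and means ± SD without a test.

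The members, role groups, other guidance genes and named genes were chosen with earlier results of these data known. Some genes of the further guidance list are not reported here and were left out of its counts. Named genes were those differing by 2 or more libraries or without overlap, the 8 with the most peaks, the 5 ranking highest by score among those in all libraries, and 8 regions with the largest difference. Alternatives were a score of at least 47 (the median), equal numbers of peaks, the gene span alone, at least 50% of the peak inside, merging within 200 bp, leaving out each library and a replicate block. The functions were tested on simulated data. Wilson intervals carry counting error only. Software was Python 3.11.15 with pandas 2.3.3, numpy 2.4.6, matplotlib 3.10.9 and scipy 1.17.1.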

Additional observations from a re-analysis of the deposited data

How the results depend on the processing

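Depth per library is unknown and limits every count of absent peaks. With equal numbers of peaks, 6 guidance genes were occupied in all libraries, 5 leaned to lead, 2 regions (in cv-c and Ptp99A) were found in all lead and no control libraries and 0 in the other direction. With the stricter score these were 5, 5, 1 and 0. Peak differences turned to -0.33 in NetA and -1.33 in Ten-a with equal numbers, to -0.50 in Lar without lead replicate 3, and to 0.33 in Ptp10D without control replicate 2 or lead replicate 2 (range -1.17 to 0.33, and -0.50 to 1.5 in Lar, without each library; exact p of at least 0.4). With equal numbers, peaks tied in score at the cut were kept in order of chromosome and position, with X after the autosomes. NetA and Ten-a lie on X. Beyond fewer peaks or libraries, the cause of these changes was not tested.

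Without each library in turn, occupied genes differed by -3.67 to 1.33 and peaks by -2.17 to 13.8, the share by -0.146 to 0.119 points. Genes occupied throughout numbered 12 to 15, those leaning to lead 2 to 5 and to control 4 to 10, regions in all lead and no control libraries 1 to 6 (6 without lead replicate 2) and the reverse 1 to 2 (2 without control replicate 2); genes of these kinds stayed at 1 and 0. Of 241 alternative values, 223 were counted as kept. They showed no reversed peak difference, or lay within the spread or 1.5 times the count. Many of these could not do otherwise, so the tally does not measure stability. The replicate block cannot change the values, no gene could pass, and the peak differences of ed and tutl were 0 at the outset. A change of sign within the spread was also counted as kept, as for the 1.33 genes and the -2.17 peaks. So was a peak difference that fell to 0, as in stan, Lar and Ptp10D with equal numbers of peaks and with the stricter score. With the stricter score, the differences of NetA, Sema1a and Ten-a fell to 0 too. With 40 kb as the bound for long genes, 81.8% of guidance genes and 81.0% of all such genes were occupied. In all 6 libraries, 45.5% and 40.4% were.

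Lead and control libraries of the same replicate number had correlations of deviations of 0.0114, -0.0147 and -0.00577. Those of the other pairs ran from -0.0281 to 0.0310. The labels do not say whether replicates were paired, and correlations of called regions cannot decide it. The replicate block cannot change the differences (-1 genes, 5.67 peaks, -0.0274 points) or counts, and 0 genes passed with it (smallest sign-flip p 0.25, so none could).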
